A study of Homo sapiens with 12 samples.

Results

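The miR-29 family consists of the mature miRNAs miR-29a-3p, miR-29b-3p and miR-29c-3p (hsa-miR-29a-3p, hsa-miR-29b-3p and hsa-miR-29c-3p in the tables), which were followed here by SLAMseq in Huh7 cells, a human hepatocellular carcinoma line used as a hepatocyte model. The members were taken by name from the deposited tables and are 3 of the 2652 mature miRNAs listed in each. The 12 libraries fall into 3 conditions of 4 libraries each. Control cells received the solvent DMSO and no 4-thiouridine (4SU), DMSO cells received DMSO and 500 μM 4SU, and PlaB cells received the splicing inhibitor pladienolide B together with 500 μM 4SU, all for 4 h. The sample labels give 500 μM for PlaB as well, which differs from the dose in the methods of the study, so no PlaB dose is relied on here. DMSO against Control therefore compares cells with and without 4SU in the same solvent, PlaB against DMSO compares splicing inhibition within labelled cells, and PlaB against Control differs in both. DMSO replicates 1 and 2 each combine 3 sequencing runs, including a library prepared a second time. All libraries come from a single cultured line, which holds none of the stellate cells or fibroblasts that produce most collagen in liver.

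A miRNA is cut from a hairpin in a longer transcript, first by the Microprocessor complex in the nucleus and then by Dicer in the cytoplasm, and one strand of the resulting duplex is retained in an Argonaute protein. It recognises mRNAs mainly through its seed, bases 2 to 8 from the 5′ end. The miR-29 family is best known for repressing collagens and other extracellular matrix genes, and its loss is a recognised feature of liver fibrosis. In SLAMseq, 4SU is built into RNA made during the labelling period and is alkylated before sequencing, so that a labelled position is read as C instead of T. The T>C conversion rate, the share of covered T positions read as C, thus reports how much of a miRNA was made after 4SU was added, over the background measured in Control.

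The 3 members are shown first as sequences, since they share a seed and differ at few other bases. Mature sequences were taken from RefSeq (GRCh38.p14), run 5′ to 3′, and carry the seed in capitals.
miR-29a-3p: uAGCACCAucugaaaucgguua
miR-29b-3p: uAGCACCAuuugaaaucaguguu
miR-29c-3p: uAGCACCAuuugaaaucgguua
The seed AGCACCA occurred in 3 of the 2370 human mature miRNA names in the RefSeq table, and these were the 3 members. With positions counted from 1 at the 5′ end, miR-29a-3p and miR-29c-3p differed at a single base, C10U. miR-29b-3p is a base longer and differed from miR-29c-3p by A18G, G21U and U22A over the 22 bases compared. miR-29a-3p contains 6 U, miR-29c-3p 7 and miR-29b-3p 8, and only these positions can give a T>C conversion. In miR-29c-3p a conversion at position 10, U10C, yields exactly the sequence of miR-29a-3p. How often a converted miR-29c-3p read was assigned to miR-29a-3p was not tested, since the tables hold no counts by position.

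The hairpins lie in 2 pairs, each inside the gene of a long non-coding RNA on the minus strand (GRCh38, GENCODE version 44). On chromosome 7, MIR29B1 (chr7:130877459-130877539) and MIR29A (chr7:130876747-130876810) are separated by 648 bases within LINC-PINT. All 81 bases of the MIR29B1 hairpin lie in an exon of the transcript LINC-PINT-206, whereas only 2 of the 64 bases of the MIR29A hairpin do and the mature miR-29a-3p (chr7:130876748-130876769) lies outside it. On chromosome 1, MIR29B2 (chr1:207802443-207802523) and MIR29C (chr1:207801852-207801939) are separated by 503 bases, and both fall wholly in an exon of MIR29B2CHG-213. Mature miR-29c-3p is at chr1:207801865-207801886. Mature miR-29b-3p is encoded with the same sequence at 2 places, chr7:130877467-130877489 and chr1:207802450-207802472, so the mature sequence alone does not tell its genes apart.

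**Figure D1:**
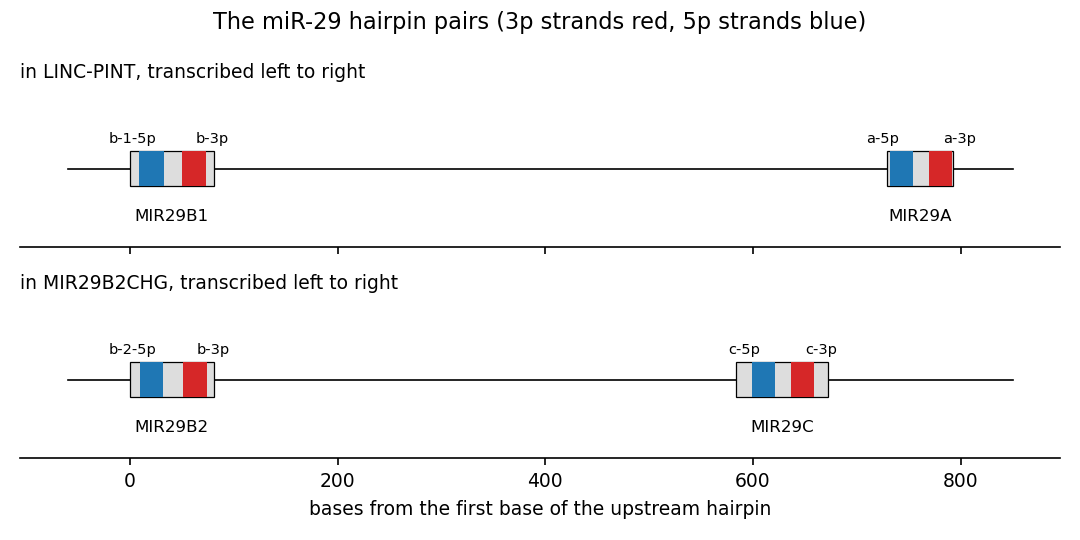
Map of the 2 hairpin pairs drawn to scale in the direction of transcription, with the distance in bases from the first base of the upstream hairpin on the x axis. Grey boxes are hairpins, red boxes 3p strands and blue boxes 5p strands, and the hairpins of a pair are 648 bases apart in LINC-PINT and 503 bases apart in MIR29B2CHG.

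The target mRNAs of the family were not measured here, and the match to its seed was counted in annotated transcripts only. The search used TGGTGCTA, the reverse complement of bases 2 to 8 followed by an A, in the sequence of the transcript itself. It was present in the 3′ UTR of 20 of 44 collagen genes (45.5%, median 3′ UTR of 1122 bases), and in 621 of 19523 protein-coding genes overall (3.18%, median 1066 bases), each gene represented by its Ensembl canonical transcript. Windows of 30 bases are shown, with the match in capitals, for both chains of type I collagen and for 1 of the matches in each of type III and type IV collagen.
COL1A1, chr17:50184561-50184590, minus strand: gagggaatcacTGGTGCTAtagaaattgag
COL1A2, chr7:94430902-94430931, plus strand: aagaatgttgaTGGTGCTAgaagaatttga
COL3A1, chr2:189012005-189012034, plus strand: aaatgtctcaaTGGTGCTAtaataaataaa
COL4A1, chr13:110150315-110150344, minus strand: atgtcacaacaTGGTGCTActtcttcttct
COL3A1 and COL5A1 each held 2 matches, while COL4A2 and COL6A1 held none. A match is a run of letters and not a measured site.

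Libraries held between 1522210 and 3880241 reads assigned to miRNAs, and the T>C conversion rate over all miRNAs was 0.0225% to 0.0319% in Control, 0.246% to 0.29% in DMSO and 0.135% to 0.171% in PlaB. The hepatocyte label was checked against marker miRNAs. The 5 hepatocyte markers, led by miR-122-5p, summed to 117601 to 166592 CPM (reads per 1000000 reads assigned to miRNAs) over the 12 libraries. The 6 markers of stellate cells, fibroblasts and smooth muscle summed to 118 to 206 CPM. Their medians over the 12 libraries were 74.1 CPM for miR-143-3p, 31.9 for miR-145-5p, 17.8 for miR-199a-3p and 11.4 for miR-199a-5p. The median was 1.18 CPM for miR-214-3p and 0 for miR-133a-3p. The 6 blood cell markers summed to at most 7.88 CPM, and 2 endothelial markers to 412 to 655 CPM, nearly all of it miR-126-3p. The methods describe 4 independent experiments, so the p-values measure the spread between separate cultures of one line.

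The family was carried almost entirely by miR-29a-3p, and the read level of no member passed the test in any comparison. miR-29a-3p was read at 2429.7, 2685, 2862 and 2277 CPM in Control replicates 1 to 4, at 2468, 2617, 2592 and 2233 CPM in DMSO and at 2472, 2710.0, 2251 and 2287 CPM in PlaB. The 3 conditions overlapped throughout, with means of 2563 ± 261, 2478 ± 175 and 2430.0 ± 210.3 CPM (SD, n = 4). In Control it ranked 44th by mean CPM among the 2652 miRNAs, of which 1230 had any Control read. In bulk RNA, fewer cells making a miRNA and less of it per cell cannot be told apart.

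miR-29b-3p was lower by more than an order of magnitude, although one of its genes is the neighbour of MIR29A. It was read at 24.6, 38.9, 31.5 and 34.3 CPM in Control, at 30.7, 35.7, 42.4 and 25.9 CPM in DMSO and at 29.6, 24.8, 33.9 and 56.0 CPM in PlaB. PlaB replicate 4 was the highest of the 12 libraries, and the conditions overlapped. The miR-29a-3p level exceeded that of miR-29b-3p by 40.9 to 109 times within a library. The members have nearly the same length, 22 or 23 bases, so CPM were compared between members without a length term. A read of miR-29b-3p can map to both of its genes, and whether such a read was counted once or at each was not tested. Reads covered on average 5.96 of the 6 U of miR-29a-3p, 7.07 of the 8 of miR-29b-3p and 6.74 of the 7 of miR-29c-3p, so that not every read spanned the whole sequence. Differences in ligation or amplification between sequences were not tested.

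miR-29c-3p was the scarcest member. It was read at 4.80, 5.43, 6.07 and 7.96 CPM in Control, at 9.28, 13.1, 7.39 and 9.65 CPM in DMSO and at 4.60, 11.6, 7.53 and 5.76 CPM in PlaB, from 7 to 43 reads per library. DMSO was above Control in 4 of 4 same-numbered pairs but the groups overlapped by 1 library on each side. miR-29b-3p exceeded miR-29c-3p by 2.13 to 9.73 times. miR-29a-3p thus made up 97.4% to 98.8% of the family's CPM in every library, miR-29b-3p 0.901% to 2.38% and miR-29c-3p 0.183% to 0.492%.

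**Figure D2:**
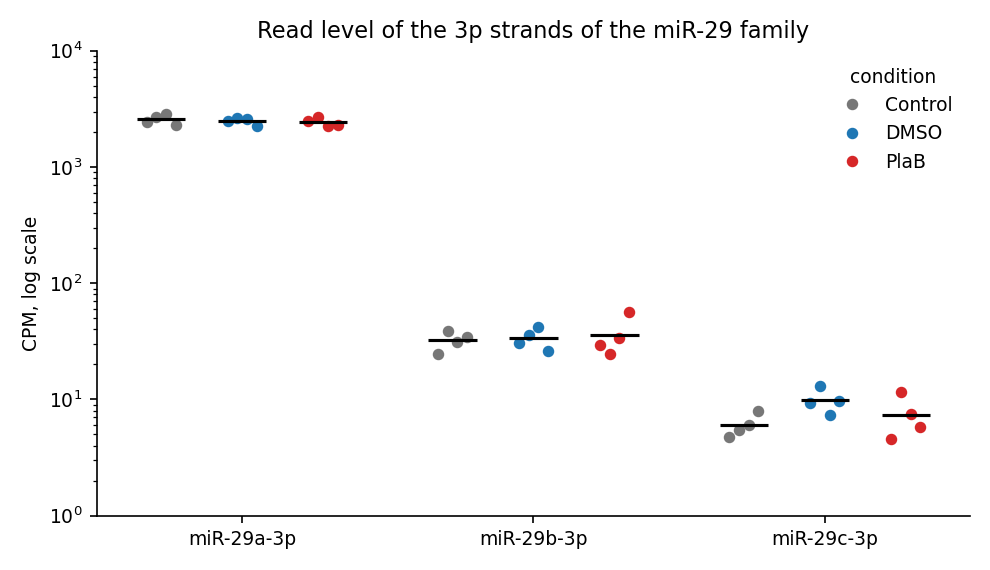
Read level of each member in every library, in CPM on a log scale, with 1 point per library and a black line at the mean of the 4 libraries of a condition. The 3 members form separate bands, with miR-29a-3p at 2233 to 2862 CPM, miR-29b-3p at 24.6 to 56.0 and miR-29c-3p at 4.60 to 13.1, and the conditions overlap within each band.

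The edgeR quasi-likelihood test of read counts, fitted over 533 miRNAs, called 0 of 3 members in DMSO against Control, where 6% of all miRNAs were called. It called 0 of 3 in PlaB against DMSO (0.375% called) and 0 of 3 in PlaB against Control (6.75% called). No member had an unadjusted p under 0.05 in any of these, and DESeq2 also called none. For miR-29a-3p the log2 fold change of reads was -0.03 (SE 0.11) in DMSO against Control and -0.04 (SE 0.11) in PlaB against DMSO. For miR-29b-3p these were 0.07 (SE 0.28) and 0.09 (SE 0.28). The largest estimate was that of miR-29c-3p in DMSO against Control, 0.71 (SE 0.41, adjusted p = 0.470 in edgeR), and an exact two-sided permutation test of its CPM gave p = 0.0571. The log2 ratio of miR-29a-3p to miR-29b-3p CPM overlapped between Control, DMSO and PlaB, with means of 6.32 ± 0.29, 6.22 ± 0.21 and 6.14 ± 0.60 (SD, n = 4). Exact permutation tests gave p = 0.6 for DMSO against Control and p = 0.83 for PlaB against DMSO, where 4 libraries against 4 cannot give a p below 0.0286.

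The T>C conversion rate of miR-29a-3p rose on labelling. Its rate was 0% (0 of 24228 covered T positions), 0.0391%, 0.0291% and 0.0370% in Control replicates 1 to 4. In DMSO it was 0.128%, 0.253%, 0.269% and 0.221%, from 58 to 129 conversions per library. In PlaB it was 0.161%, 0.138%, 0.0562% and 0.180%, from 12 to 47 conversions. All DMSO and all PlaB libraries lay above all Control libraries, an arrangement that 61.9% and 32.6% of the 239 miRNAs tested for conversions also showed. DMSO replicate 1 was lowest among the DMSO libraries, and its 95% Wilson interval of 0.102% to 0.161% did not overlap those of the other 3. PlaB replicate 3 was lowest among the PlaB libraries, with an interval of 0.0321% to 0.0982%. The intervals treat every covered T as independent and hold no spread between cultures. No molecular identifiers were used to collapse reads, so PCR copies of one molecule cannot be separated. The intervals may therefore be narrower than the true counting error.

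With conversions modelled against covered T positions, the miR-29a-3p rate in DMSO was 2.96 log2 units above Control (SE 0.45, edgeR adjusted p = 1.51e-08), and in PlaB 2.27 log2 units above Control (SE 0.46, edgeR adjusted p = 1.70e-05). Pooled over libraries, 344 conversions in 165625 covered T gave 0.208% in DMSO against 36 in 125952, or 0.0286%, in Control, a 7.27-fold difference. The pooled PlaB rate of 0.136% was 4.78 times that of Control. miR-29c-3p fell short of the minimum of 10 conversions and was not tested. Of the 2 members that could be tested, both were called higher in DMSO than in Control, against 80.8% of all tested miRNAs. Both were also called higher in PlaB than in Control, against 53.1%. miR-29b-3p met the minimum of 10 through its labelled libraries only, with 0 conversions in Control, 54 in DMSO and 30 in PlaB. Its calls against Control, and the shares over all tested miRNAs, thus come from a set that conversions in labelled cells helped to select. They are not separate support for labelling. Among the 158 miRNAs over 100 CPM in every library, the mean DMSO rate of miR-29a-3p, 0.218% ± 0.063 (SD, n = 4), ranked 65th, where the median was 0.183%. Its mean Control rate ranked 53rd.

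miR-29b-3p had no conversion in any Control library, 0 of 1959 covered T positions, which allows a rate of up to 0.153%. In DMSO its rate was 3.35%, 1.41%, 2.28% and 0%, from 28, 12, 14 and 0 conversions in replicates 1 to 4. In PlaB it was 0%, 1.16%, 1.67% and 2.63%, from 0, 4, 6 and 20 conversions. A single library without conversions stood in each labelled condition, replicate 4 in DMSO with 350 covered T and replicate 1 in PlaB with 294, where 0 conversions allow a rate of up to 0.857% and 1.02%. The other 3 libraries of each condition lay above every Control library.

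Pooled, the miR-29b-3p rate was 2.03% in DMSO (95% Wilson interval 1.56% to 2.64%) and 1.71% in PlaB (1.20% to 2.43%). These point estimates were 13.3 and 11.1 times the rate that 3 conversions over the Control group would give. The ratios leave out the error of the labelled rates and are not lower bounds. Without DMSO replicate 1 the DMSO rate was 1.43% and the ratio 9.34. PlaB replicate 4 held 20 of the 30 PlaB conversions, and without it the PlaB rate was 1.00% and the ratio 6.55. The edgeR adjusted p was 9.45e-05 for DMSO and 0.000447 for PlaB against Control, in a test that miR-29b-3p entered through its labelled libraries only. An exact permutation test of the library rates gave p = 0.143 for each, since one labelled library in each condition tied with Control at 0. Every T>C read of miR-29b-3p in DMSO held 1 conversion, 54 conversions in 54 reads, and these reads were 14.5% of its 373 DMSO reads. For miR-29a-3p, 315 T>C reads were 1.13% of 27807 DMSO reads. Multi-mapping reads made up 52.6% to 98.1% of the miR-29b-3p reads in a library, and 72.5% in Control, 69.4% in DMSO and 94.5% in PlaB after pooling, whereas they were 0.00606% of all miR-29a-3p reads. The part of multi-mapping in the miR-29b-3p rates was not tested, nor whether a multi-mapping read was counted once or at each place. The number of miR-29b-3p conversions was even or 0 in every library. Counting at each place would raise its CPM, covered T and conversions and make its intervals and edgeR p-values too small.

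The pooled DMSO rate of miR-29b-3p was 9.79 times that of miR-29a-3p, and in PlaB the factor was 12.5. The study names U content as an influence on labelling, and states that its method cannot directly compare synthesis rates between miRNAs. These factors therefore compare T>C rates, not the speed at which the members were made. The DMSO factor was 5.73 without replicate 1, which held 28 of the 54 conversions, and the PlaB factor was 8.26 without replicate 4. Within a DMSO library the difference averaged 1.54 percentage points and was positive in 3 of 4 libraries (exact two-sided sign-flip p = 0.25, where 4 pairs cannot give less than 0.125). The difference was 0.98 points without DMSO replicate 1 and 0.89 without replicates 1 and 2. Among the 120 miRNAs whose mean CPM lay within 2-fold of that of miR-29b-3p, its pooled DMSO rate ranked 16th, with a median of 0.150%. The same rank for miR-29a-3p was 11th of 31, with a median of 0.174%.

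miR-29c-3p had no conversion in any of the 12 libraries. Its covered T positions numbered 353 in Control, 768 in DMSO and 342 in PlaB, which allow rates of up to 0.85%, 0.391% and 0.877%. The DMSO limit lies above the pooled miR-29a-3p rate and below the miR-29b-3p interval, so that labelling at the level of miR-29a-3p was not detectable at this depth. Of 200 miRNAs within 2-fold of its mean CPM, 69 had a DMSO conversion.

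**Figure D3:**
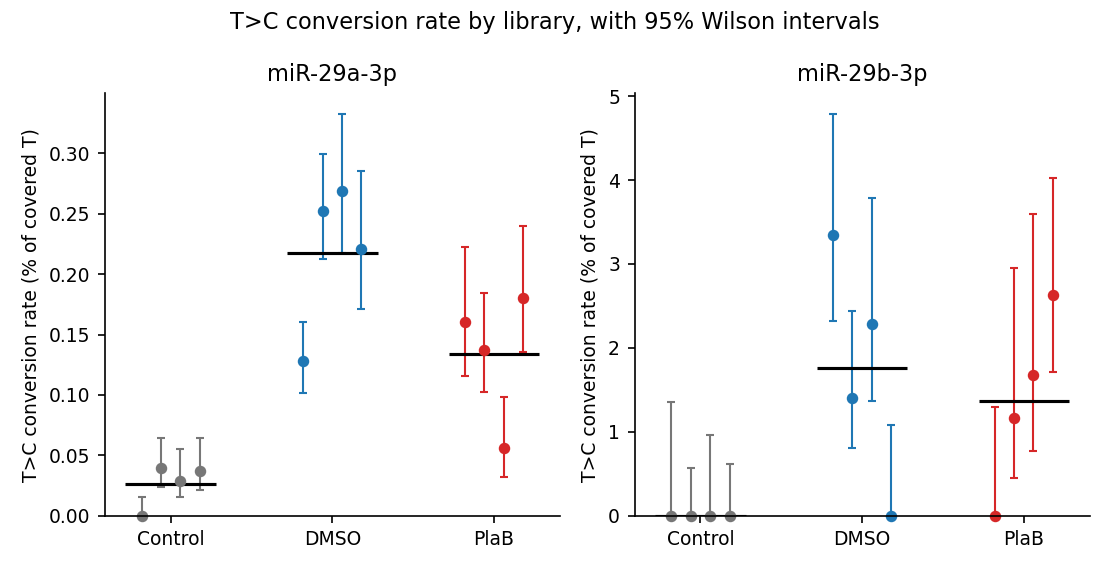
T>C conversion rate of miR-29a-3p (left) and miR-29b-3p (right) in percent of covered T positions, with 1 point per library, its 95% Wilson interval and a black line at the mean of 4 libraries, on different y scales. All labelled libraries of miR-29a-3p lie above Control, while miR-29b-3p is at 0 in DMSO replicate 4 and PlaB replicate 1 and at 1.16% to 3.35% in the other labelled libraries.

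PlaB against DMSO asks whether splicing inhibition altered the making of the family within 4 h. The mean miR-29a-3p rate was 0.218% ± 0.063 in DMSO against 0.134% ± 0.055 under PlaB (SD, n = 4), and after subtraction of Control the PlaB value was 0.561 of the DMSO value, or 0.602 from pooled conversions. The log2 fold change was -0.69 (SE 0.40) and did not pass the test (edgeR adjusted p = 0.164). It ranged from -0.88 to -0.44 with each library left out in turn, the smallest without PlaB replicate 3. PlaB minus DMSO was 0.0327, -0.115, -0.213 and -0.0408 percentage points in replicates 1 to 4, so that PlaB was lower in 3 of 4. An exact permutation test of the library rates gave p = 0.114.

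For miR-29b-3p the log2 fold change of the rate was -0.33 (SE 0.84, edgeR adjusted p = 0.828). Its mean was 1.76% ± 1.42 in DMSO against 1.37% ± 1.10 under PlaB (SD, n = 4), and PlaB was lower in 3 of 4 pairs. PlaB replicate 4 was higher than DMSO replicate 4 by 2.63 percentage points. The subtracted PlaB value was 0.777 of the DMSO value from library means and 0.839 from pooled conversions. The estimate changed sign without DMSO replicate 1 (0.16) or PlaB replicate 1 (0.03), and so no direction is drawn from it.

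In this comparison 0 of the 2 members were called in either direction, where 37.2% of all miRNAs were, nearly all of them lower. Neither member had an unadjusted p under 0.05, and DESeq2 called neither. The median log2 fold change over all 239 miRNAs was -1.22, and miR-29a-3p ranked 157th and miR-29b-3p 179th from the lowest. The difference between the 2 members, miR-29b-3p minus miR-29a-3p in each library, changed by -0.31 percentage points on average from DMSO to PlaB, with an exact permutation p = 0.743. This change was 0.25 without DMSO replicate 1 and 0.16 without PlaB replicate 1.

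**Figure D4:**
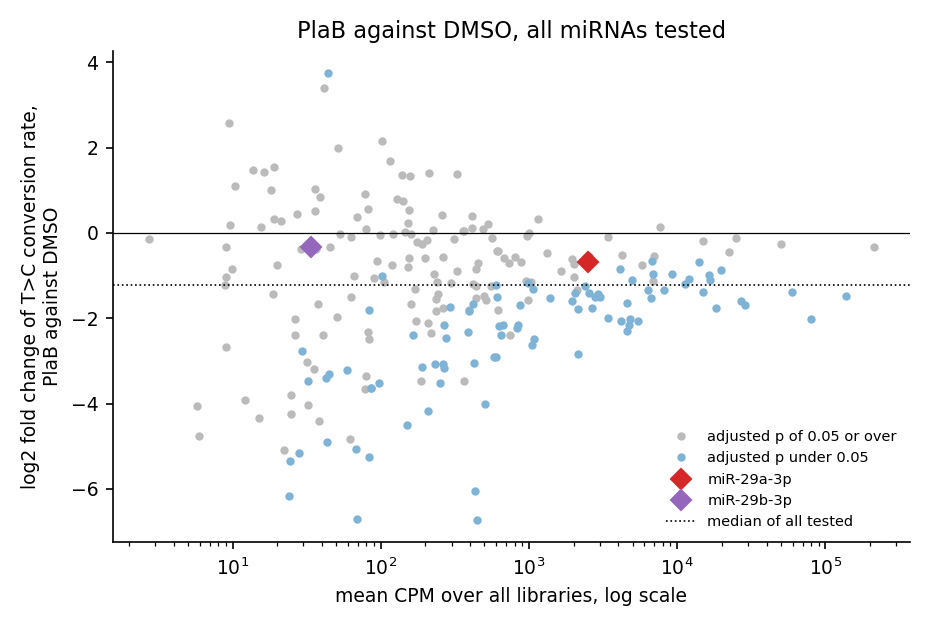
Log2 fold change of the T>C conversion rate in PlaB against DMSO for the 239 miRNAs tested, against mean CPM over all libraries on a log scale, with miRNAs under an adjusted p of 0.05 in light blue. miR-29a-3p at -0.69 and miR-29b-3p at -0.33 lie between 0 and the dotted median of -1.22, and neither passed the test.

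The 4 hairpins also yield 5p strands, whose seeds (in capitals) differ from that of the 3p strands and from each other.
miR-29a-5p: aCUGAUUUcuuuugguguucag
miR-29b-1-5p: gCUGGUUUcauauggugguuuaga
miR-29b-2-5p: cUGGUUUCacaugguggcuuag
miR-29c-5p: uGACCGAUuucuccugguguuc
These strands are usually degraded after Dicer cleavage. Unlike miR-29b-3p, the 5p strands of MIR29B1 and MIR29B2 have sequences of their own, and miR-29b-1-5p was read far more often (461 reads over all libraries) than miR-29b-2-5p (27 reads). In Control, miR-29b-1-5p averaged 30.7 CPM, close to the 32.3 CPM of miR-29b-3p.

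miR-29b-1-5p was the strand whose Control reads stood above those of both labelled conditions, while DMSO and PlaB overlapped. It was read at 39.0, 19.6, 22.1 and 42.3 CPM in Control, at 15.2, 12.8, 8.87 and 12.7 CPM in DMSO and at 12.5, 15.2, 0 and 7.85 CPM in PlaB. Every Control library was above every DMSO and every PlaB library, as was so for 9.01% of the miRNAs tested in DMSO against Control and 8.82% in PlaB against Control. The log2 fold change was -1.29 in DMSO (SE 0.56, edgeR adjusted p = 0.252) and -1.76 in PlaB (SE 0.58, edgeR adjusted p = 0.106) against Control, so that neither passed the test, and exact permutation tests of its CPM gave the smallest possible p, 0.0286, for both. The miR-29b-1-5p call depended on the fit. With the replicate number as a block the PlaB value was -1.92 with an edgeR adjusted p = 0.0475, DESeq2 gave an adjusted p = 0.0164, and without PlaB replicate 3, which had no read, the DMSO value passed with an edgeR adjusted p = 0.0340. Over 18 alternatives the adjusted p ranged from 0.0340 to 0.452 for DMSO and from 0.000983 to 0.274 for PlaB against Control, with 3 past the threshold in each, and the estimate was negative in all. Its conversions were 1 of 2500 covered T in Control, 13 of 1409 in DMSO and 3 of 630 in PlaB, and 9 of the DMSO conversions were in replicate 4. Its rate could not be fitted over all libraries, since PlaB replicate 3 had no covered T. In the 2 fits without that library, the rate in DMSO was above Control by 3.87 log2 units (edgeR adjusted p = 0.0219) and, with the 8 DMSO and Control libraries alone, by 3.97 (edgeR adjusted p = 0.0335). miR-29b-1-5p entered both fits through its conversions in labelled libraries. Its DMSO rates were 0.699%, 0%, 0% and 3.66% in replicates 1 to 4. An exact permutation test of these rates against Control gave p = 0.429, so no rise is drawn from the fits.

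The other 5p strands were too scarce for a comparison. miR-29a-5p had 31, 42 and 11 reads in Control, DMSO and PlaB with 0, 2 and 2 conversions. miR-29c-5p had 23, 23 and 7 reads and no conversion. miR-29b-2-5p had 14 reads in Control replicate 1 and none in the other Control libraries, and its 8 conversions were all in the 4 reads of DMSO replicate 4.

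**Figure D5:**
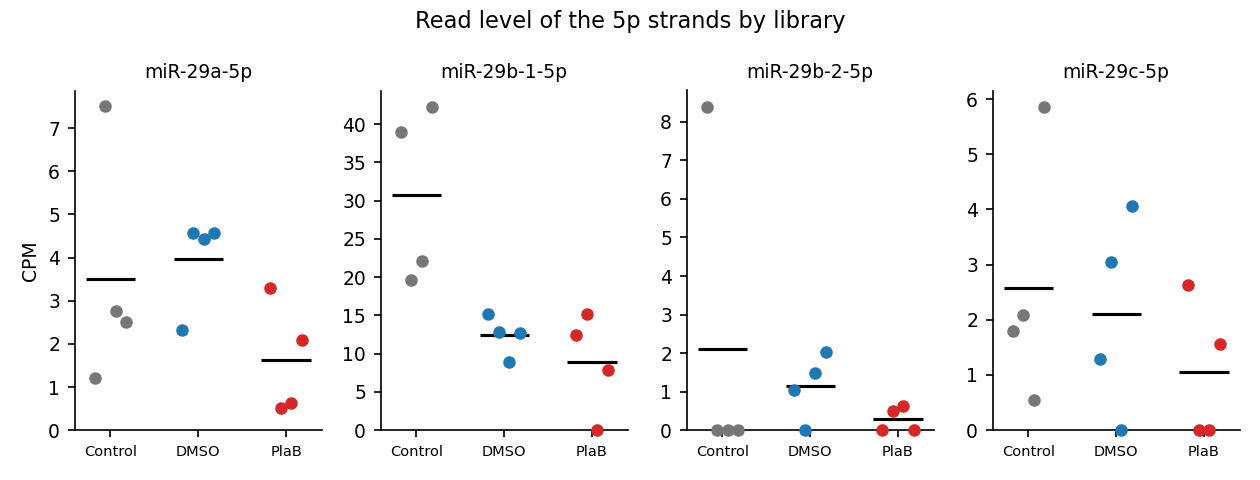
Read level of the 4 5p strands in CPM, with 1 point per library and a black line at the mean of the 4 libraries of a condition, each strand on its own y scale. For miR-29b-1-5p the Control libraries, at 19.6 to 42.3 CPM, lie above all DMSO and PlaB libraries, while no other strand exceeds 8.39 CPM.

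Other miRNAs linked to liver fibrosis were examined beside the family. Of 18 such miRNAs, 14 could be tested for reads, and edgeR called 0 of them in each of the 3 comparisons (6%, 0.375% and 6.75% of all miRNAs in DMSO against Control, PlaB against DMSO and PlaB against Control), with an unadjusted p under 0.05 for 1 in DMSO against Control and none elsewhere, and none by DESeq2. For conversions 12 could be tested. Of these, 11 rose in DMSO against Control (median log2 fold change 2.93, against 3.67 over all miRNAs tested, of which 80.8% rose) and 8 rose in PlaB against Control (1.33 against 2.30, with 53.1% of all rising). In PlaB against DMSO, 6 fell and none rose (median -1.31 against -1.22 over all), where 36.8% of all miRNAs fell.

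miR-122-5p, the main hepatocyte miRNA, fell from 0.323% ± 0.035 in DMSO to 0.0798% ± 0.0037 in PlaB (edgeR adjusted p = 8.02e-19). miR-181b-5p, which is raised in activated stellate cells, fell from 0.659% ± 0.145 to 0.234% ± 0.040. miR-222-3p, also linked to stellate cell activation, fell from 0.242% ± 0.038 to 0.0794% ± 0.0278. miR-21-5p, a promoter of fibrosis and the most read of the list, had 0.332% ± 0.055 in DMSO and 0.266% ± 0.038 in PlaB, with an edgeR adjusted p = 0.0509. miR-200a-3p had 0.462% ± 0.233 and 0.538% ± 0.139 (all SD, n = 4). The other 3 that fell were miR-192-5p, miR-19b-3p and miR-30c-5p.

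The miRNAs whose rates were most like those of miR-29a-3p were found among the other 157 over 100 CPM in every library. The measure was the mean absolute difference of log2 rate over 12 libraries, with 0.5 added to every number of conversions. They were miR-148a-3p (0.682), miR-16-5p (0.757) and miR-125a-5p (0.773). The mean miR-148a-3p rates were 0.0270% in Control, 0.216% in DMSO and 0.135% in PlaB, beside 0.0263%, 0.218% and 0.134% for miR-29a-3p. By the Pearson correlation of log2 CPM over the 12 libraries, the most like were miR-222-3p (r = 0.875), miR-30c-5p (0.782) and miR-30b-5p (0.764), of which miR-30b-5p was listed with no conversion in any library. These likenesses are descriptions only, since all miRNAs of a library share its culture, depth and preparation.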

How the data were processed

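Small RNA from 12 Huh7 cultures was sequenced by SLAMseq, with 4 libraries each of Control, DMSO and PlaB. Per the methods and labels, the authors used Trim Galore for trimming and SLAM-DUNK for mapping to GRCh38 and counting over miRBase mature coordinates, masking SNPs and applying no filter on mapping quality. The deposited tables hold, as counts, the reads of each miRNA, its multi-mapping and T>C reads, its covered T and its conversions, with CPM values and the T>C conversion rate as a fraction, which is printed here in percent. Reads were tested in edgeR 4.0.16 (R 4.3.3) with TMM factors, filterByExpr and one quasi-likelihood fit of 3 conditions. Conversions were tested likewise with the log of covered T as offset, for miRNAs covered in every library with at least 10 conversions in all. Adjustment was by Benjamini-Hochberg over all miRNAs tested, at 0.05. Library values were compared by exact permutation (scipy 1.17.1), unadjusted for the number of values compared. The scripts were tested on simulated data.

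The methods describe 4 experiments with the 3 conditions in each. Deviations of log2 CPM from the condition mean correlated between same-numbered libraries over the 158 miRNAs above 100 CPM, with a lowest r of 0.208 and medians of 0.557 to 0.571, whereas over all 533 tested the lowest r was 0.0164. The medians over all 533 were 0.111 to 0.225. For T>C rates the medians over the 239 tested were -0.0491 to 0.0415, and over the 158 above 100 CPM -0.0176 to 0.102. The fit without a block is given first.

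The alternatives were RLE factors, DESeq2 1.42.0, other filters, T>C reads, a replicate block, 8 libraries alone and libraries left out. The named miRNAs are the members, the other strands of their hairpins, miRNAs sharing the seed and the listed cell markers. Also named are miRNAs of the fibrosis list, with values for at most 6, and the 3 most like miR-29a-3p by each measure. Members and lists were chosen with earlier results of these data known. The ranks among miRNAs of similar CPM were added after the values were seen. DMSO replicates 1 and 2 were the only libraries made from several sequencing runs.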

Additional observations from a re-analysis of the deposited data

Results flagged for a closer look

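Of 30 groups of 4 libraries examined for a value far from the other 3, 4 held one. All were 5p strands with few reads, and in 3 of them the other libraries were at 0, where any value above 0 stands apart and the usual chance level of 1 in 20 groups does not apply. miR-29a-5p in DMSO replicate 1 was at 2.32 CPM and the other DMSO libraries at 4.43 to 4.58 CPM. The miR-29a-5p rate was 1.21% in DMSO replicate 2, from 2 conversions, and 0% in the other DMSO libraries. The miR-29b-1-5p rate was 0.214% in Control replicate 2, from 1 conversion, and 0% in the other Control libraries. miR-29b-2-5p was at 8.39 CPM in Control replicate 1 and 0 in the other Control libraries.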

How the results depend on the processing

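The T>C rate of miR-29a-3p and of miR-29b-3p passed the threshold against Control under every alternative that could be fitted, for DMSO and for PlaB, and in PlaB against DMSO neither passed under any (lowest adjusted p of 0.0871 for miR-29a-3p, with 8 libraries alone, and 0.510 for miR-29b-3p). miR-29b-3p, without a Control conversion, entered the fits against Control through its labelled libraries only. No member's reads passed under any alternative. Of 311 alternative values for the members, 290 kept their direction and side of the threshold and 21 turned their direction, all of them uncalled. Conversions of miR-29c-3p could not be fitted, and above 100 CPM only miR-29a-3p remains. The replicate block changed no call of a member. miR-29c-3p and the 5p strands are limited by their few reads.

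In reads of DMSO against Control, the 32 miRNAs called became 59 with the replicate block, 17 without DMSO replicates 1 and 2 and 8 above 100 CPM. Leaving out 1 library gave 15 to 35, with 21 without Control replicate 3 and 20, 15 and 19 without DMSO replicates 2, 3 and 4. In PlaB against DMSO, the 2 called became 6 with DESeq2, 6 with the block, 5 without a filter, 1 above 100 CPM, 0 with RLE factors, 0 with 8 libraries alone and 0 without DMSO replicates 1 and 2, and 0 to 1 without any 1 library. Above 100 CPM the 36 called in PlaB against Control became 6. For T>C rates above 100 CPM, 127 in place of 194 were called in DMSO against Control and 83 in place of 128 in PlaB against Control, with fewer miRNAs tested. The 89 called in PlaB against DMSO became 52 without DMSO replicates 1 and 2.

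Leaving out 1 library turned the direction of these log2 fold changes of reads. In DMSO against Control they ranged from -0.10 to 0.0094 for miR-29a-3p and from -0.0545 to 0.16 for miR-29b-3p. In PlaB against DMSO they ranged from -0.10 to 0.0357 and from -0.17 to 0.24. In PlaB against Control miR-29b-3p ranged from -0.12 to 0.31 and miR-29c-3p from -0.0231 to 0.48. The miR-29a-3p reads in PlaB against DMSO also turned to 0.0204 with 8 libraries alone, 0.0087 with DESeq2, 0.0020 without DMSO replicates 1 and 2 and 0.0076 with RLE factors. The miR-29b-3p rate in PlaB against DMSO ranged from -0.89 to 0.16, and was 0.24 without DMSO replicates 1 and 2. The change from DMSO to PlaB in its excess over miR-29a-3p, in percentage points, ranged from -0.89 to 0.25, and was 0.34 without both. The log2 ratio of miR-29a-3p to miR-29b-3p in PlaB against DMSO ranged from -0.29 to 0.18, the latter without PlaB replicate 4. The causes were not tested. The pooled ratios of miR-29b-3p without each library, given beside those ratios, were chosen after seeing the data.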
